A study of Camelina sativa with 12 samples.

Results

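The 3 genes Csa08g057450, Csa20g009360 and Csa13g009030, out of 49932 genes in the expression matrix, were annotated by the study as sulfotransferase 2A (ST2A). They are called the ST2A copies here. Whether other rows of the matrix hold further copies is not known, since the reference gene names matched none of its identifiers. *Camelina sativa* is a hexaploid oilseed of the mustard family, and most *A. thaliana* genes have several copies (homeologs) in it. The identifiers place the copies on chromosomes 8, 20 and 13. The genes were chosen because the study had listed them as different between *rolD::acdS* and control roots, so the difference between these groups is given as a description without a test. The study annotated all of them as sulfotransferase 2A, but paired Csa20g009360 and Csa13g009030 with the *A. thaliana* gene ST2A and Csa08g057450 with its close relative ST2B. The name of Csa08g057450 is therefore less certain than that of the other copies.

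In *A. thaliana*, ST2A transfers a sulfate group to 12-hydroxyjasmonate, an oxidized form of the hormone jasmonic acid. The hydroxylated form no longer drives the main jasmonate responses, and its sulfation belongs to the routes by which the hormone is taken out of use. Jasmonates are made from oxygenated fatty acids, are restrained by JAZ repressor proteins, and act in responses to wounding, insects, pathogens and some abiotic stresses.

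The roots came from 28-day-old plants of cultivar DH55 in 4 groups, each with 3 biological replicates and 12 libraries in all. The control was wild-type DH55. The *P. migulae* 8R6-treated group was DH55 in soil inoculated with *Pseudomonas migulae* 8R6, a root endophyte whose ACC deaminase degrades the precursor of ethylene. The *35S::acdS* and *rolD::acdS* groups were DH55 lines carrying the ACC deaminase gene *acdS* of *Pseudomonas* sp. UW4. In these lines *acdS* was driven by the double CaMV *35S* promoter, active in most tissues, or by the *rolD* promoter of *Agrobacterium rhizogenes*, active mainly in roots. Control and transgenic plants received MgSO4 buffer in place of bacteria. All groups were watered with 192 mM NaCl (15 dS/m) for 21 days, so none of the comparisons is between salt and no salt. The transgenic lines were single insert and homozygous, and the labels do not give several lines per construct, so a construct cannot be told apart from its line.

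Expression is given in CPM, reads of a gene scaled by the reads of its library, deposited as whole numbers, and the number of reads behind a library is unknown. The values of a library summed to between 887898 and 947036. In bulk root RNA, fewer cells of a type and less RNA per cell cannot be told apart. The 4 chlorophyll-binding genes fixed as markers of shoot material summed to 4 CPM in each control library, 3 CPM in each *P. migulae* 8R6-treated library, 5 to 20 CPM in *35S::acdS* and 4 to 7 CPM in *rolD::acdS*. One of them, Csa01g026130, was listed at 0 in every control and *P. migulae* 8R6-treated library. The study had listed 3 of these genes as different between *35S::acdS* and control and the other between *rolD::acdS* and control, so their sums are not independent of the groups. The part of shoot material in the values below was not tested.

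All ST2A copies had their highest levels in *rolD::acdS* roots and low, overlapping levels in the other groups. Csa20g009360 stood at 29, 4 and 22 CPM in the control, 4, 4 and 23 CPM in *P. migulae* 8R6-treated, 9, 4 and 22 CPM in *35S::acdS* and 162, 45 and 72 CPM in *rolD::acdS* roots (replicates 1, 2 and 3). Csa13g009030 stood at 19, 5 and 16 CPM in the control, 9, 5 and 20 CPM in *P. migulae* 8R6-treated, 14, 4 and 20 CPM in *35S::acdS* and 119, 29 and 58 CPM in *rolD::acdS* roots. Csa08g057450 stood at 15, 4 and 13 CPM in the control, 10, 5 and 17 CPM in *P. migulae* 8R6-treated, 12, 4 and 16 CPM in *35S::acdS* and 70, 23 and 28 CPM in *rolD::acdS* roots. For each copy, the *rolD::acdS* libraries lay above the 9 other libraries, and those 9 were interleaved among their groups. Replicate 2 was the lowest library of its group in every group and for every copy, sharing that place with replicate 1 for Csa20g009360 in *P. migulae* 8R6-treated roots. The highest library of each copy was *rolD::acdS* replicate 1.

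**Figure D1:**
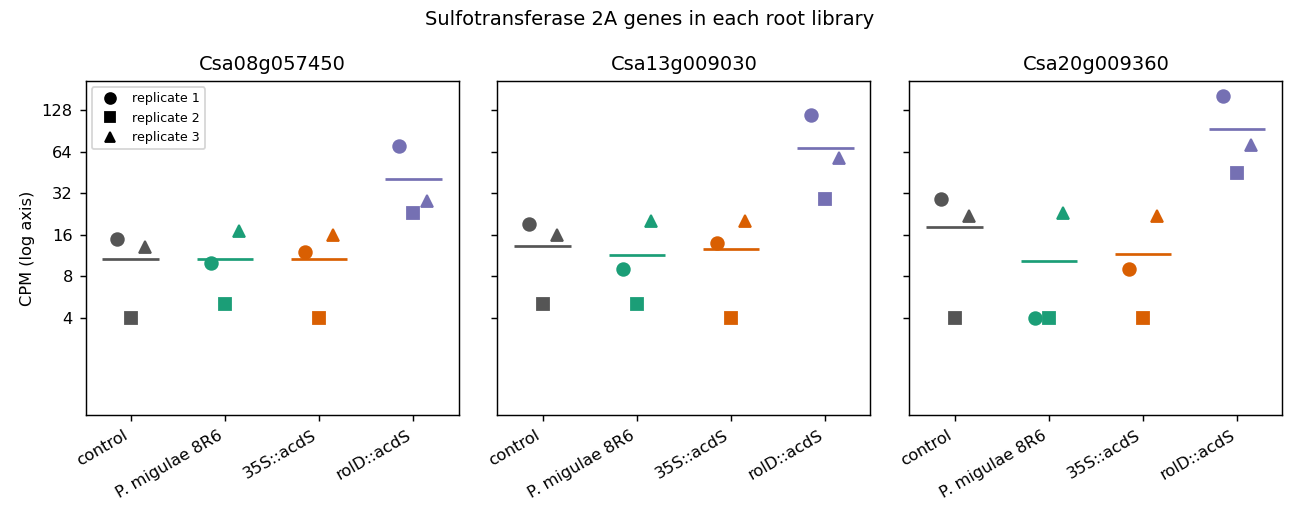
CPM of each sulfotransferase 2A gene (log axis) in the 3 libraries of each group, with a marker for each replicate number and a line at the group mean. The *rolD::acdS* libraries of Csa20g009360 sit at 45 to 162 CPM, above the highest other library at 29 CPM, and replicate 2 (squares) is lowest in every group, tied in one case.

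The order of the group means was the same in Csa20g009360 and Csa13g009030, and the lower groups did not differ beyond their spread. Csa20g009360 averaged 93.0 ± 61.3 CPM in *rolD::acdS*, 18.3 ± 12.9 CPM in the control, 11.7 ± 9.29 CPM in *35S::acdS* and 10.3 ± 11.0 CPM in *P. migulae* 8R6-treated roots (SD, n = 3). Csa13g009030 averaged 68.7 ± 45.9, 13.3 ± 7.37, 12.7 ± 8.08 and 11.3 ± 7.77 CPM in the same order of groups. Csa08g057450 averaged 40.3 ± 25.8 CPM in *rolD::acdS* and 10.7 CPM in each of the other groups, with SDs of 5.86 CPM in the control, 6.11 CPM in *35S::acdS* and 6.03 CPM in *P. migulae* 8R6-treated roots. The gap between *rolD::acdS* and the rest was narrow in its weakest library. The lowest *rolD::acdS* library was 1.35 times the highest other library for Csa08g057450 (23 against 17 CPM), 1.45 times for Csa13g009030 (29 against 20 CPM) and 1.55 times for Csa20g009360 (45 against 29 CPM). Among all 48099 genes with at least 1 CPM in at least 3 libraries, 182 genes (0.378%) had every *rolD::acdS* library above the 9 others.

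Against the control, the ratio of the mean CPM in *rolD::acdS* was 5.15 for Csa13g009030, 5.07 for Csa20g009360 and 3.78 for Csa08g057450. The log2(CPM + 0.5) scale averages the logs of the libraries, so its fold changes can lie above or below the ratio of means. The added 0.5 shrinks changes of low genes. On this scale *rolD::acdS* minus control came to 2.50 (SE 0.890) for Csa20g009360, 2.29 (SE 0.732) for Csa13g009030 and 1.88 (SE 0.653) for Csa08g057450. These values stood 4th, 8th and 41st from the top among the 48099 genes, a position that the choice of the genes favours. In *rolD::acdS*, 3 of 3 copies had all libraries above all control libraries, where 2.99% of all genes did, and 0 lay below (3.77%), and nothing is read from that count because the genes were chosen on this contrast. The fits with limma on all libraries gave the standard errors, and the same SE of a copy applies to each of its contrasts.

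Against the other groups, *rolD::acdS* had a similar excess. Relative to *P. migulae* 8R6-treated roots the log2 fold changes were 3.38 for Csa20g009360, 2.53 for Csa13g009030 and 1.85 for Csa08g057450, and relative to *35S::acdS* roots they were 3.04, 2.42 and 1.89. Every *rolD::acdS* library of the 3 copies exceeded every *P. migulae* 8R6-treated library (5.1% of all genes did) and every *35S::acdS* library (3.51%), and 0 copies lay below them (5.56% and 3.58%). These contrasts share the *rolD::acdS* libraries on which the genes were chosen, and they also carry no test.

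The groups without the *rolD* construct overlapped for every copy. *P. migulae* 8R6-treated minus control came to 0.03 for Csa08g057450, -0.24 for Csa13g009030 and -0.88 for Csa20g009360, and *35S::acdS* minus control to -0.01, -0.13 and -0.54. Each of these was smaller than the SE of its gene, but single libraries moved them. Without control replicate 2, Csa20g009360 came to -1.72 in *P. migulae* 8R6-treated and -1.38 in *35S::acdS*, and without control replicate 1 or *35S::acdS* replicate 2 to -0.37 and 0.02, respectively. In *35S::acdS* minus control, Csa13g009030 ranged from -0.70 to 0.51 and Csa08g057450 from -0.57 to 0.55, and in *P. migulae* 8R6-treated minus control from -0.81 to 0.21 and from -0.53 to 0.47. The lowest value was the one without control replicate 2 in each case, and the highest of these 4 ranges the one without replicate 2 of the treated group. Of the 3 copies, 0 had libraries of *P. migulae* 8R6-treated roots entirely above or below the control (1.95% and 2.21% of all genes), and 0 did so in *35S::acdS* (3.46% and 4.42%).

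The one contrast between libraries that played no part in choosing the genes is *35S::acdS* against *P. migulae* 8R6-treated roots, that is, *acdS* delivered by the plant or by the bacterium. The groups also differ in the source of *acdS*, the plant line and the presence of live bacteria, so delivery cannot be told apart from these. No copy passed the test in this contrast. The log2 fold change was 0.34 for Csa20g009360 (95% interval -1.63 to 2.31, adjusted p = 0.905 from limma), 0.11 for Csa13g009030 (-1.51 to 1.73, adjusted p = 0.998) and -0.04 for Csa08g057450 (-1.48 to 1.40, adjusted p = 1). Among the 3 copies, 0 met the limits for a call (adjusted p up to 0.05 together with a log2 fold change beyond 0.8 in either direction), with 0 at an unadjusted p under 0.05, and over all genes 0% were called (5796 at an unadjusted p under 0.05). The libraries overlapped for each copy, so 0 of 3 lay entirely above (4.71% of all genes) or below (5.05%). The intervals are wide enough to hold a doubling in either direction. The sign of each of these differences turned when single libraries were left out, and Csa20g009360 ranged from -0.26 without *35S::acdS* replicate 3 to 1.13 without *P. migulae* 8R6 replicate 3.

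**Figure D2:**
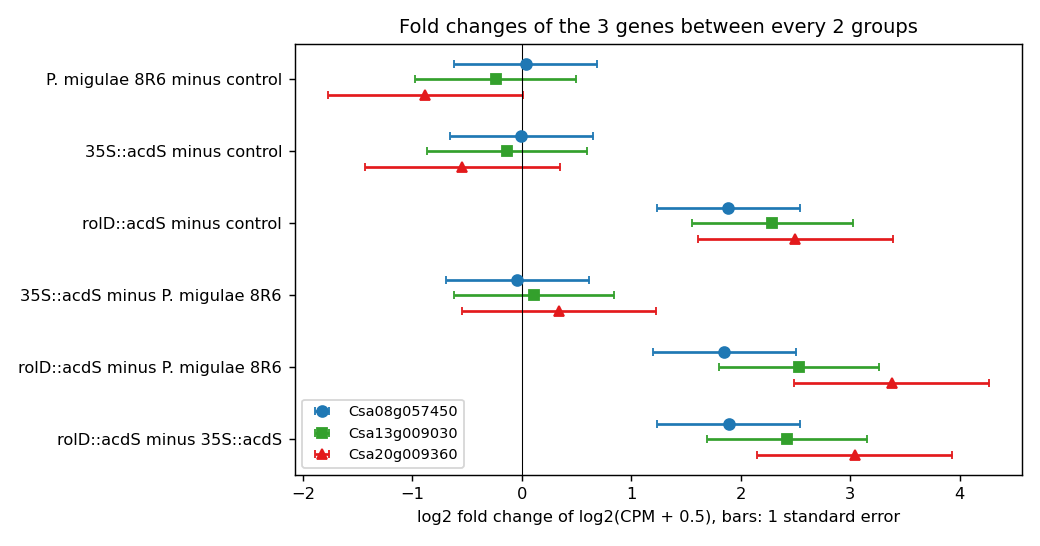
Log2 fold changes of the 3 sulfotransferase 2A genes between every pair of groups, as points with bars of 1 standard error on the log2(CPM + 0.5) scale. The contrasts with *rolD::acdS* lie between 1.85 and 3.38, and the other contrasts lie between -0.88 and 0.34 with bars that reach or cross 0.

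Summed over these 3 copies only, expression was 63, 13 and 51 CPM in the control, 23, 14 and 60 CPM in *P. migulae* 8R6-treated, 35, 12 and 58 CPM in *35S::acdS* and 351, 97 and 158 CPM in *rolD::acdS* roots. The groups other than *rolD::acdS* again covered the same range, from 12 to 63 CPM. The mean sum in *rolD::acdS* was 4.77 times that of the control (202 against 42.3 CPM), 6.25 times that of *P. migulae* 8R6-treated and 5.77 times that of *35S::acdS* roots. One library carried much of this excess: without *rolD::acdS* replicate 1 the ratios were 3.01, 3.94 and 3.64. Leaving out *P. migulae* 8R6 replicate 3 raised the ratio to that group to 10.9. Between *35S::acdS* and *P. migulae* 8R6-treated roots no difference between the mean sums of 35.0 and 32.3 CPM was detected (exact permutation test, two-sided, p = 1.0, smallest possible p = 0.1 with 3 against 3 libraries).

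The copies did not contribute equally, and their shares were not the same in libraries with low and high sums. Shares are parts of the summed CPM and are not per length, since no gene lengths were matched to these identifiers. Reads that fit more than one copy may have been split among them, and how this was handled is not given in the sources used here, so the division among copies is uncertain. In *rolD::acdS* roots Csa20g009360 held 46.2%, 46.4% and 45.6% of the sum. Its share was 46.0%, 30.8% and 43.1% in the control, 17.4%, 28.6% and 38.3% in *P. migulae* 8R6-treated and 25.7%, 33.3% and 37.9% in *35S::acdS* roots. The *rolD::acdS* libraries were thus within 1 percentage point of each other while the other groups spread widely, and control replicate 1 lay inside their range. Csa08g057450 held 19.9%, 23.7% and 17.7% in *rolD::acdS*, while the lowest of the 9 other libraries was control replicate 1 at 23.8%. Rounding allows 23.1% to 24.4% for *rolD::acdS* replicate 2 and 22.8% to 24.8% for that control library, so these are not separated. Csa13g009030 had the most even share, with group means of 33.3% in the control, 36.1% in *P. migulae* 8R6-treated, 35.9% in *35S::acdS* and 33.5% in *rolD::acdS* roots.

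Between *35S::acdS* roots and those treated with *P. migulae* 8R6 the shares overlapped. Csa20g009360 averaged 32.3 ± 6.17% and 28.1 ± 10.5% (SD, n = 3, exact permutation test, two-sided, p = 0.7), Csa08g057450 31.7 ± 3.62% and 35.8 ± 7.57% (p = 0.4), and Csa13g009030 35.9 ± 3.56% and 36.1 ± 2.91% (p = 1.0). With the summed level these are 4 exact permutation tests, the adjusted p of each was 1.0, and none could go below p = 0.1.

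Libraries with low and with high sums differed in their shares, within groups as well as between them. In the 5 libraries with a sum of 12 to 35 CPM, Csa20g009360 held 17.4% to 33.3% (median 28.6%), and in the 7 libraries with a sum of 51 to 351 CPM it held 37.9% to 46.4% (median 45.6%). For Csa08g057450 the order was the opposite, with 30.8% to 43.5% in the low libraries and 17.7% to 28.3% in the high ones. The share of Csa13g009030 overlapped between them, at 33.3% to 40.0% and 29.9% to 36.7%. This division at a gap in the sums was made after the values were seen. The high side holds libraries of every group, among them all *rolD::acdS* libraries, and the low side holds no *rolD::acdS* library. In the high libraries of the other groups Csa20g009360 held 37.9% (*35S::acdS* replicate 3) to 46.0% (control replicate 1). A share and the sum contain the same reads. Rounding to whole CPM widens the low shares, as in *P. migulae* 8R6 replicate 1, where the 17.4% of Csa20g009360 could lie between 14.9% and 20.0%. Over all libraries Csa20g009360 covered the widest range, 40.5-fold from 4 to 162 CPM, against 29.8-fold for Csa13g009030 and 17.5-fold for Csa08g057450.

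**Figure D3:**
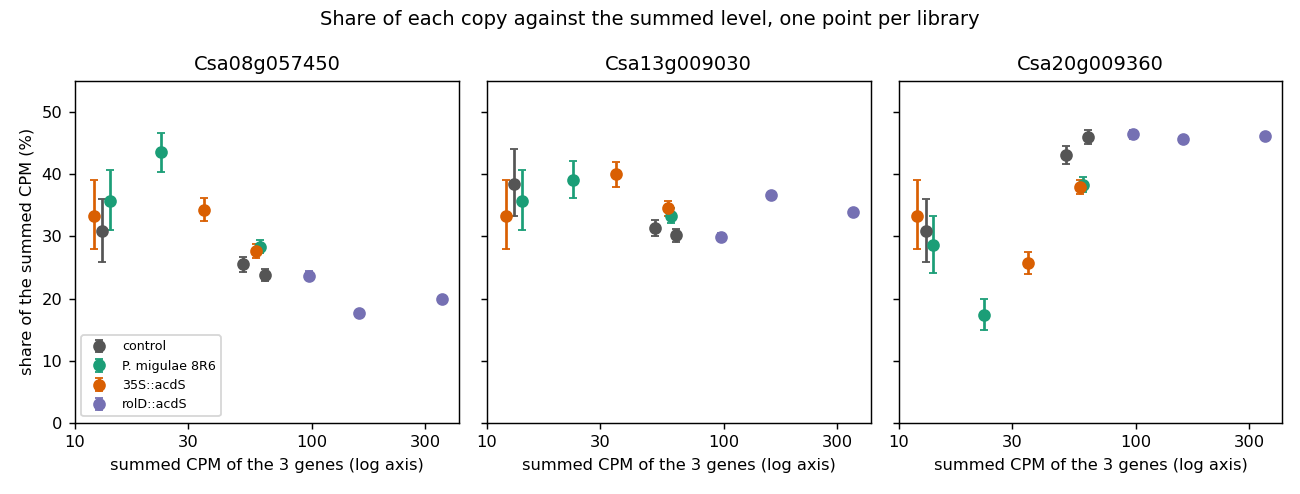
Share of each sulfotransferase 2A gene in the summed CPM (vertical axis, %) against that sum (log axis), one point per library coloured by group, with bars for the limits that rounding to whole CPM allows. Csa20g009360 stays at 33.3% or less in the libraries summing to 35 CPM or less and reaches 37.9% to 46.4% in the others, while Csa08g057450 runs the other way.

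The copies went up and down together from library to library. After each group mean was subtracted on the log2 scale, Csa08g057450 and Csa13g009030 had a Pearson's r of 0.982 over the 12 libraries, Csa20g009360 and Csa13g009030 0.939, and Csa08g057450 and Csa20g009360 0.925. In the 9 libraries without *rolD::acdS* the r of their levels was 0.985, 0.921 and 0.867. The points share libraries and depth, any reads divided among the copies, and any difference common to same-numbered libraries. Of 32859 other genes with a mean of at least 5 CPM, 5 genes (0.0152%) followed the mean deviation of the copies at an r of 0.925 or more, and the median r was 0.02. That limit is the lowest r between single copies, whereas the other genes were set against the mean of the copies, so the measures are unlike.

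Their spread within groups was large for genes of this level. The pooled SD within groups on the log2 scale was 1.25 for Csa20g009360, 1.03 for Csa13g009030 and 0.915 for Csa08g057450. The median over 20553 genes with a mean of 10 to 100 CPM was 0.174. The SD of the copies was larger than in 99.7%, 99.5% and 99.3% of these genes. Within a group the highest library of a copy was 3.04 to 7.25 times the lowest.

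The genes most like the ST2A copies over the 12 libraries were a cell wall protein, a pair of transcription factors, an unknown protein and an invertase. Likeness was Pearson's r with the mean log2 level of the copies, and all of these genes are also on the study's list for *rolD::acdS*. Csa13g008910, polygalacturonase inhibiting protein 2 (PGIP2), whose product blocks fungal pectin-degrading enzymes, had an r of 0.961. It stood at 30, 12 and 32 CPM in the control, 17, 17 and 45 CPM in *P. migulae* 8R6-treated, 29, 17 and 42 CPM in *35S::acdS* and 84, 40 and 69 CPM in *rolD::acdS* roots. Replicate 2 of this gene was again the lowest or tied for lowest in every group, and its *rolD::acdS* replicate 2 fell inside the range of the other groups. Csa13g008910 was also the gene whose deviations from the group means followed the copies most closely, with an r of 0.961.

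The transcription factor genes Csa16g055680 and Csa07g064290, both annotated as bHLH125-like, had an r of 0.941 and 0.930. Csa16g055680 stood at 33, 12 and 27 CPM in the control, 16, 10 and 30 CPM in *P. migulae* 8R6-treated, 15, 13 and 31 CPM in *35S::acdS* and 59, 41 and 81 CPM in *rolD::acdS* roots. Csa07g064290 was lower, at 3 to 15 CPM in the groups other than *rolD::acdS* and 33, 20 and 40 CPM in *rolD::acdS*. For both, the *rolD::acdS* libraries did not overlap any other group. The unknown protein gene Csa17g022440 had an r of 0.925 and the vacuolar invertase gene Csa03g015980, whose product splits sucrose in the vacuole, 0.921. Csa03g015980 reached 78, 60 and 99 CPM in *rolD::acdS* roots, against 16 to 48 CPM in the other libraries. Their log2 fold changes in *rolD::acdS* minus control were 1.42 for Csa13g008910, 1.38 for Csa16g055680, 1.85 for Csa07g064290, 0.80 for Csa17g022440 and 1.51 for Csa03g015980. Over the 9 other libraries the r was 0.931, 0.944, 0.865, 0.771 and 0.866 in the same order, lower than over the 12 for each gene except Csa16g055680.

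Other genes of jasmonate synthesis, turnover and signalling also had mostly higher means in *rolD::acdS* libraries, by smaller folds than the ST2A copies except for Csa06g030650. The list held 12 genes, 11 of them chosen by the study on *rolD::acdS* against control and the remaining one on *35S::acdS* against control, so its counts are not independent evidence. Of these, 10 had a row and were tested, and the other 2 were not analysed here. By limma over all genes, 0 of 10 were called higher and 0 lower in each of the 6 contrasts. The share of all genes called in them was 0% in the 3 contrasts without *rolD::acdS*, 0.00416% for *rolD::acdS* against the control, 0.00832% against *P. migulae* 8R6-treated and 0.00416% against *35S::acdS*. At an unadjusted p under 0.05 there were 0 of the 10 in the bacterial treatment, 1 in *35S::acdS* and 9 in *rolD::acdS* against the control, beside 2604, 3427 and 3299 of the 48099 genes. The median log2 fold change of the 10 against the control was -0.12 in the bacterial treatment, 0.08 in *35S::acdS* and 1.00 in *rolD::acdS* roots, where the median of all genes was 0 in each contrast. In *rolD::acdS* 10 of 10 were positive, and 7 of 10 had all libraries above the control (2.99% of all genes did). All *rolD::acdS* libraries lay above *P. migulae* 8R6-treated roots in 8 of 10 (5.1% of all genes) and above *35S::acdS* in 4 of 10 (3.51%).

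Among genes of synthesis, allene oxide synthase (AOS, Csa20g066350), which commits fatty acid hydroperoxides to the jasmonate route, stood at 35, 29 and 35 CPM in the control and 55, 44 and 76 CPM in *rolD::acdS* roots. It lay at 22 to 35 CPM in the 8R6-treated group and in *35S::acdS* roots, below every *rolD::acdS* library. Its log2 fold change in *rolD::acdS* minus control was 0.78 (SE 0.209). The 12-oxophytodienoate reductase gene Csa16g040840, whose *A. thaliana* counterpart OPR2 works on jasmonate precursors in a side route, went another way. It stood at 9, 11 and 20 CPM in the control, 25, 20 and 20 CPM in *P. migulae* 8R6-treated, 30, 22 and 39 CPM in *35S::acdS* and 28, 8 and 10 CPM in *rolD::acdS* roots, a log2 fold change of 0.06 in *rolD::acdS* minus control. Hydroperoxide lyase 1 (HPL1, Csa11g035060), which in *A. thaliana* draws on the same hydroperoxides as AOS to make leaf aldehydes, stood at 3 CPM in every control library and 5, 6 and 7 CPM in *rolD::acdS* roots.

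Turnover and signalling genes had higher means in *rolD::acdS* than in control libraries as well, several at levels where whole-number CPM allow few steps. The libraries of *rolD::acdS* and *35S::acdS* overlapped or were tied for Csa06g030650, JAZ7, JAZ9, Csa13g015820 and Csa20g018590. Csa06g030650, annotated as jasmonate-regulated gene 21 and in *A. thaliana* an oxygenase that hydroxylates jasmonic acid, stood at 2, 1 and 0 CPM in the control, 4, 3 and 1 CPM in *35S::acdS* and 4, 2 and 10 CPM in *rolD::acdS* roots. These groups overlapped. Among the JAZ repressors, which block jasmonate-responsive transcription, the JAZ10 gene Csa08g005100 stood at 20, 14 and 16 CPM in the control, 16, 12 and 18 CPM in *P. migulae* 8R6-treated, 15, 11 and 18 CPM in *35S::acdS* and 37, 21 and 48 CPM in *rolD::acdS* roots. Replicate 2 was its lowest library in every group, as for the ST2A copies. The other JAZ10 genes had 3 to 5 CPM (Csa13g015820) and 2 to 4 CPM (Csa20g018590) in the control, 2 to 6 and 3 to 6 CPM in *35S::acdS*, and 6 to 16 and 5 to 13 CPM in *rolD::acdS* roots. JAZ9 (Csa16g032280) stood at 11, 8 and 10 CPM in the control and 22, 11 and 31 CPM in *rolD::acdS*, where replicate 2 equalled the highest control. JAZ7 (Csa05g020670) had 1 to 2 CPM in the control, 1 to 3 CPM in *35S::acdS* and 3 to 4 CPM in *rolD::acdS* roots. The lectin gene JR1 (Csa01g019170), a jasmonate-responsive gene in *A. thaliana*, stood at 151, 127 and 111 CPM in the control and 252, 196 and 323 CPM in *rolD::acdS* roots, without overlap.

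**Figure D4:**
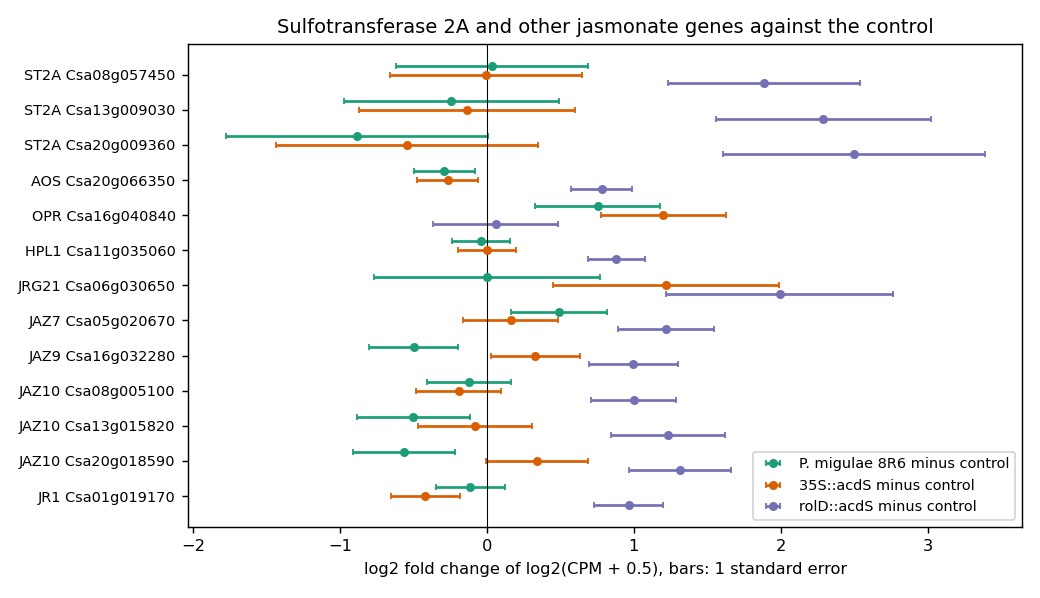
Log2 fold changes against the control, on the log2(CPM + 0.5) scale with bars of 1 standard error, for the sulfotransferase 2A copies and the 10 other jasmonate genes in the 3 treated groups. The copies lie at 1.88 to 2.50 in *rolD::acdS*, the other genes at 0.06 to 1.99, and all of these genes were chosen on libraries shown here.

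Among the jasmonate genes, the JAZ10 genes and AOS had the highest r of their levels with the mean of the copies. It was 0.893 for JAZ10 Csa08g005100, 0.877 for JAZ10 Csa13g015820, 0.859 for AOS (Csa20g066350), 0.827 for JAZ10 Csa20g018590 and 0.786 for JR1 (Csa01g019170). Within groups the r of the deviations was 0.714, 0.695 and 0.697 for the JAZ10 genes and 0.61 for AOS. The reductase gene Csa16g040840 had an r of -0.09 in its levels but 0.541 in its deviations within groups. These are descriptions over 12 libraries that share the high *rolD::acdS* group.

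In the contrast that did not choose the copies, *35S::acdS* minus *P. migulae* 8R6-treated, the median of the 10 jasmonate genes was 0.23 and 7 were positive. The list includes Csa16g040840 (0.45 in this contrast), which the study had chosen on *35S::acdS* against control. The median and the count are therefore not free of that choice. At an unadjusted p under 0.05 there were 2 of the 10, JAZ9 (Csa16g032280, log2 fold change 0.83, adjusted p = 0.327 from limma) and JAZ10 (Csa20g018590, 0.90, adjusted p = 0.349). Over all genes, 5796 of 48099 lay under that limit in this contrast. JAZ9 stood at 6, 7 and 7 CPM in *P. migulae* 8R6-treated and 15, 10 and 12 CPM in *35S::acdS* roots, and JAZ10 Csa20g018590 at 2, 2 and 2 against 4, 3 and 6 CPM. These 2 of 10 genes were also the ones whose libraries did not overlap, against 4.71% of all genes in that direction. Neither passed over all genes.

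The rows next to the ST2A copies in identifier order did not share their excess in *rolD::acdS* over control. Of the 18 rows made up of the 3 before and the 3 after each copy, 0 had all *rolD::acdS* libraries above all control libraries, 2.99% being the background over all genes. Their ratio of mean CPM, *rolD::acdS* over control, ran from 0.654 to 1.5, with 8 above 1, against 3.78 to 5.15 for the copies. Their control means ran from 1.33 to 60.3 CPM, so the set covers levels below and above those of the copies. The second row before Csa13g009030 had an r of 0.823 with the copies, the highest of the 18, within a range of 21 to 24 CPM over all libraries. The identifiers give the order on each chromosome and no function, and these rows are not named here.

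**Figure D5:**
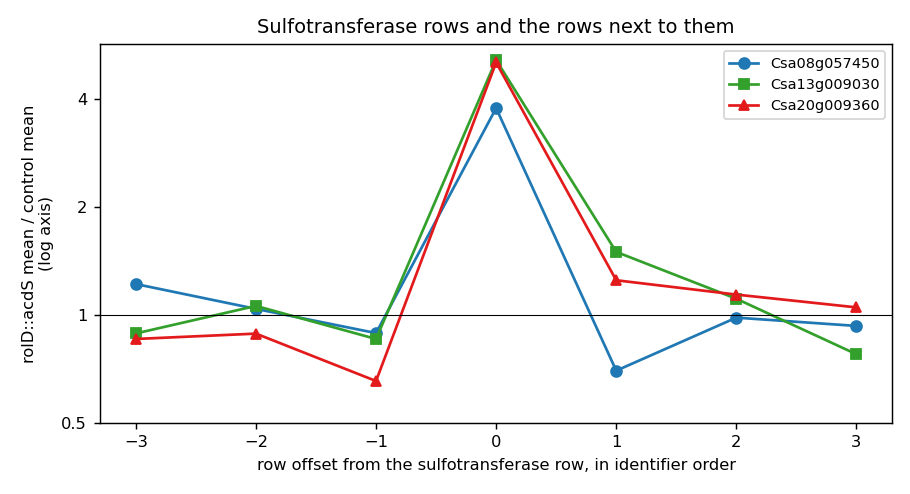
Ratio of the mean CPM in *rolD::acdS* to that in the control (log axis) for each sulfotransferase 2A copy at offset 0 and for the 3 rows before and after it in identifier order. The copies stand at 3.78 to 5.15 and the rows beside them at 0.654 to 1.5.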

How the data were processed

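Root RNA of the 12 libraries was sequenced from TruSeq libraries. The authors used Trimmomatic for trimming and STAR for alignment to camelina release 100 with NCBI transcripts, and scaled counts by library size (CPM), with DESeq and edgeR named for normalization and tests. Versions are not given in the sources used here. The deposited score values are whole numbers (100%) read as rounded CPM, so no count test was run.

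From these, log2(CPM + 0.5) was fitted with limma 3.58.1 in R 4.3.3 (4 group means, trend, 8 residual and 2.59 prior degrees of freedom) over 48099 genes with at least 1 CPM in at least 3 libraries. Benjamini-Hochberg adjustment covered all tested genes of a contrast. A call needed an adjusted p up to 0.05 and a log2 fold change beyond 0.8 in either direction. Only *35S::acdS* minus *P. migulae* 8R6-treated was tested for the copies. Exact permutation tests were two-sided (scipy 1.17.1). The fit was tested on simulated data.

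The genes named are the 3 copies, the 12 genes of the jasmonate list and the 5 genes with a mean of at least 5 CPM most like the copies. Members and lists were chosen with earlier results of these data known. The reference table of gene names matched 0 identifiers, so sequences, lengths and coordinates were not used here. Alternative settings were a pseudocount of 0.1 or 1, no filter, a mean of at least 5 CPM, median-of-ratios and quantile scaling, a fit of only the groups compared, a replicate block, no trend, and leaving out each library.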

Additional observations from a re-analysis of the deposited data

How the results depend on the processing

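Except for Csa08g057450 in *35S::acdS* minus control, which was -0.00694 and came to 0.00426 with median-of-ratios scaling, the fold changes of the ST2A copies kept their direction under both pseudocounts, both filters, both scalings, the replicate block, no trend, and a fit restricted to the groups compared. With single libraries left out, *35S::acdS* minus *P. migulae* 8R6-treated turned sign in each copy, between -0.256 and 1.13 for Csa20g009360 (-0.059 without *P. migulae* 8R6 replicate 1 or 2), between -0.341 and 0.753 for Csa13g009030 (-0.0912 without *35S::acdS* replicate 1), and between -0.475 and 0.517 for Csa08g057450 (0.36 without *P. migulae* 8R6 replicate 3). In *rolD::acdS* minus control the copies ranged from 1.32 to 2.21 (Csa08g057450), 1.66 to 3.01 (Csa20g009360) and 1.72 to 2.79 (Csa13g009030). The small number of calls over all genes moved with the settings, and the cause was not tested. In the order 8R6-treated against control, *35S::acdS* against control, *rolD::acdS* against control, then *35S::acdS* against *P. migulae* 8R6-treated, *rolD::acdS* against *P. migulae* 8R6-treated and against *35S::acdS*, 0, 0, 2, 0, 4 and 2 genes were called. Without a filter these became 2, 6, 4, 10, 15 and 8, without trend 2, 6, 4, 9, 9 and 8, and with only the groups compared 24, 37, 21, 74, 44 and 39. A pseudocount of 0.1 gave 1 in the first, 3 in the fourth and 15 in the fifth contrast. A pseudocount of 1 and median-of-ratios scaling gave 0 in the third, the fifth and the sixth, a mean of at least 5 CPM 0, 2, 24 and 0 in the third to sixth, and quantile scaling 15 in the fifth. Leaving out single libraries gave 0 to 4, 0 to 6, 0 to 7, 0 to 22, 0 to 51 and 0 to 10. Replicate numbers were not taken to pair the samples, since nothing in the labels ties them and not every pair exceeded 0.1. The standard errors, intervals, within-group spreads and correlations of deviations given above are without a replicate block. They include any difference that same-numbered libraries share. Deviations of same-numbered libraries correlated at -0.144 to 0.399 over 18 pairs, of which 10 exceeded 0.1, and 8 of 12 libraries correlated best with their own number. With the replicate block, *rolD::acdS* had 0, 1 and 0 calls in the third, the fifth and the sixth contrast, and the copies kept 0.34, 0.11 and -0.04 (adjusted p = 0.826, 0.915 and 1 from limma) in the tested one. Whole-number CPM and an unknown read depth limit values of a few CPM.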
